A study of Homo sapiens with 4 samples.

Results

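Interferon-stimulated genes are the genes that cells switch on when interferon binds its receptor, and 36 well-known ones were followed here in HepG2 cells depleted of LSD1 (gene KDM1A), a histone demethylase. A gene was read through probe sets that the platform annotation assigns to it and to no other gene. This gave 35 of the 36 genes, read by 63 of the 41091 single-gene probe sets used, which cover 19752 genes in all; STAT2 was not analysed here. The 4 samples were HG-U133 Plus 2.0 arrays of RNA from HepG2, an established human hepatoma line grown in medium with 25 mM glucose and 10% serum. Both control arrays (Cont 1 and Cont 2) came from cells transfected with an siRNA against GL3. The knockdown group (LSD1-KD) held 1 array of cells given siRNA-1 and 1 array of cells given siRNA-2, both directed against LSD1. Transfection was done at about 50% confluence, and RNA was taken after 4 days. The series as titled asks about LSD1 and gene expression in hepatic cancer cells, and no sample was treated with interferon.

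Interferons signal through cell-surface receptors and the JAK kinases. Type I and type III interferons activate a complex that includes STAT2 and IRF9 and binds the interferon-stimulated response element (ISRE), whereas interferon gamma acts mainly through the gamma-activated site (GAS). Liver cells respond strongly to type I and type III interferons, and the genes they induce code for proteins that block viral entry, translation and replication or that amplify the signal itself. Cytosolic sensors of RNA and DNA can also switch on the interferon genes, and in some cases interferon-stimulated genes directly.

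The deposited values are RMA values, taken as log2, and the authors centred each probe set on the median of its 4 arrays. They therefore give differences between arrays and no expression levels. A brightness class was inferred from the rounding step left in the numbers. It placed 16 members in the bright class (8 or above on the log2 scale before centring), 10 in the middle class (4 to 8) and 9 in the dim class (below 4). The dim members were HERC5, HERC6, IFI16, IFI44, IFI44L, IFIT2, IRF7, OAS3 and RSAD2. No label states whether arrays in a group stem from independent cultures. P-values here therefore speak for the scatter among these arrays, some of which may be technical. Each SE given below is limma's moderated value, which also draws on the spread of all genes. In RNA from whole cultures, fewer cells with a transcript and less of it per cell cannot be told apart.

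KDM1A itself read 1.23 on Cont 1, 1.17 on Cont 2, -1.55 for siRNA-1 and -1.17 for siRNA-2, which is 5.91-fold lower in the knockdown group (adjusted p = 0.0854 by limma). The siRNA-2 array spread most over all probe sets, with an SD of 0.384 against 0.154 to 0.197 on the other arrays. The 18 hybridization spike-in probe sets, which read RNA added during processing and not from the cells, averaged -0.69 and -0.61 for Cont 1 and Cont 2 but 0.61 for siRNA-1 and 0.65 for siRNA-2. The knockdown mean of these spike-ins was thus 1.28 log2 units (2.44-fold) higher, and the 24 poly-A spike-in probe sets were 0.30 higher. These added RNAs moved in the same direction as the members described as higher below, and their part in those results was not tested. All 8 hepatocyte markers measured were in the bright class. In all 8 (100%, against 23.6% of all genes) both knockdown arrays lay above both controls, with a median difference of 0.42. Of 7 immune cell markers, 3 were in the dim class. In 1 (14.3%) both knockdown arrays were higher and in 1 (14.3%) both were lower, against 23.6% and 25.3% of all genes. With siRNA-2, 1 passed as higher and 1 as lower (14.3% each, against 13.4% and 10.2% of all genes). PTPRC, which defines white blood cells, differed by -0.11 (SE 0.15), and CD14, an endotoxin co-receptor that hepatocytes also make, by 1.31 (SE 0.30; adjusted p with siRNA-2 = 0.0144 by limma). ITGAM, a myeloid integrin, was lower on both knockdown arrays (-0.26), CD3E, a T cell receptor subunit in the dim class, fell by 0.48 with siRNA-2 (adjusted p = 0.0388 by limma), and LYZ differed by 0.16. Of 7 stromal and endothelial markers, 2 (28.6%, against 23.6%) were higher on both knockdown arrays and 1 (14.3%, against 25.3%) was lower. COL1A1 was at 1.88 (SE 0.54), PECAM1 at 0.49 (SE 0.12), COL1A2 at 0.15 and the lower one, DCN, at -0.27. PDGFRB, named after its values were seen, was at -1.18 for siRNA-1 and 0.63 for siRNA-2. The part of these markers in the results was not tested.

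Many of the members carry the binding patterns of the interferon response just before their start. RefSeq promoters (GRCh38.p14, 250 bases before to 50 after the start) were found for 29 of the 36 members. The ISRE core, searched as GAAA, any 2 bases and GAAA on both strands, was present in 17 of the 29 (58.6%), against 3.65% of the 27305 promoters of the same length in the table. The GAS pattern, searched as TTCNNNGAA on both strands, was present in 8 (27.6%), against 7.88% of all promoters, and matches of both kinds could overlap. A few windows are shown, each the 200 bases before the start, because these genes carry the results below. IFIT1 and IFIT3 have paired ISRE cores, IFI27 has both patterns, and IRF1 and IRF9 have GAS alone. ISG15, which did not rise, has 2 ISRE matches that overlap each other. Capitals mark the bases of any match, and each window reads 5′ to 3′ on the gene's strand. The windows are chr10:89392423-89392622 for IFIT1, chr10:89327797-89327996 for IFIT3, chr14:94110536-94110735 for IFI27, chr14:24161065-24161264 for IRF9 and chr1:1013297-1013496 for ISG15, all on the plus strand, and chr5:132490774-132490973 on the minus strand for IRF1.
IFIT1: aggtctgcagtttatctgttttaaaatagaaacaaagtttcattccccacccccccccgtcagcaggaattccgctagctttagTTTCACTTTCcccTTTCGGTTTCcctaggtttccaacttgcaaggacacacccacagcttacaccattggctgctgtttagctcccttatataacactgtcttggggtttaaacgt
IFIT3: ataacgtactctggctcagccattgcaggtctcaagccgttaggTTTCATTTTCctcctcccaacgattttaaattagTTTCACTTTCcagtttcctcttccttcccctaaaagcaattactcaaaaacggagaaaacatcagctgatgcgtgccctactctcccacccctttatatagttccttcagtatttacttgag
IFI27: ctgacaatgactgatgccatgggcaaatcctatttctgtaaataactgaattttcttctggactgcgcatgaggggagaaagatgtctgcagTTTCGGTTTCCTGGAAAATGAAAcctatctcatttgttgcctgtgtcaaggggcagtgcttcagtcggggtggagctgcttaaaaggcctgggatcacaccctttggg
IRF1: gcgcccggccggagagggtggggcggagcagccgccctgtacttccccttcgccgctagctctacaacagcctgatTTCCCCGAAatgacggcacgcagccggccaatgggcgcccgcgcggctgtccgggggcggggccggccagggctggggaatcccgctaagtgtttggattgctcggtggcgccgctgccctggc
IRF9: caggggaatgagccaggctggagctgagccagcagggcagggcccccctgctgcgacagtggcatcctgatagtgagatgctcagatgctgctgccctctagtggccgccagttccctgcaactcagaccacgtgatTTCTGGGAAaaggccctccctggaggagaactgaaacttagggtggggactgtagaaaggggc
ISG15: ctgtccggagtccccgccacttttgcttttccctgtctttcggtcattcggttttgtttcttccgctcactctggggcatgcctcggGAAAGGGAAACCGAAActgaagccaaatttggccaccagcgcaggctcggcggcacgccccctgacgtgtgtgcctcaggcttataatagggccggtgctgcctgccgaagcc
The ISRE core nearest the start began 103 bases before it in IFIT1, 122 in IFIT3, 95 in IFI27 and 107 in ISG15. The GAS match began 101 bases before the start in IFI27, 124 in IRF1 and 63 in IRF9. A match describes the letters only and is not evidence that a factor binds there.

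As a group the members moved little, and a subset stood higher with both siRNAs. The median difference of the 35 genes between knockdown and control was 0.07 log2 units, against -0.0038 over all 19752 genes. Taken singly, siRNA-1 gave 0.14 and siRNA-2 gave -0.0055, where all genes had 0.00084 and -0.021. In 13 members (37.1%) both knockdown arrays lay above both controls, where 23.6% of all genes did so. They were BST2, IFI6, IFI27, IFI35, IFIT1, IFIT3, IFIT5, IFITM1, IRF1, IRF9, SAMHD1, USP18 and XAF1. In 3 members (8.57%), ISG15, OAS1 and RIGI, both knockdown arrays lay below both controls, against 25.3% of all genes. The groups overlapped in the other 19. Fewer arrays make such an order easier to reach: without the siRNA-2 array 23 members (65.7%, against 40.3% of all genes) were higher and 5 (14.3%, against 40%) lower. Without the siRNA-1 array 15 were higher (42.9%, against 40%) and 15 lower (42.9%, against 44.6%), and without Cont 2 10 were lower (28.6%, against 34.4%). All 13 were in the bright or middle class, where they made up 50% of 26 members, against 25.3% of the 15173 genes in those classes, and the 3 lower ones 11.5%, against 27.1%. In 4 members, IFIT1, IFIT5, IFI27 and IRF1 (11.4%), each siRNA was also at least 0.4 log2 units above the control mean, as in 4.29% of all genes. No member was lower by that margin, where 2.96% of all genes were.

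In the test of 2 arrays against 2, no member passed an adjusted p of 0.05 (limma), while 0.00506% of all genes passed as higher, a single gene, and 0% as lower. At an unadjusted p under 0.05, 8 members were higher and 1 was lower, with backgrounds of 7.52% and 7.09% of all genes. An exact permutation test cannot give a two-sided p below 0.33 with these group sizes. With siRNA-1 alone, 0 members and 0% of all genes passed in either direction (limma with 3 groups), although 26.7% of all genes had an unadjusted p under 0.05. With siRNA-2 alone, 9 members passed as higher (25.7%) and 1 as lower, against 13.4% and 10.2% of all genes. The 9 were BST2, IFI27, IFI35, IFIT1, IFIT3, IFIT5, IRF1, IRF9 and XAF1, and the lower one was ISG20. That test takes its spread from the control pair and treats the single siRNA array as if it varied equally. Below, "rose" and "fell" refer to this siRNA-2 test. After quantile normalization between arrays, none of these 10 passed it, nor did any other gene (0% of all genes in either direction). In the 2-against-2 test of the quantile-normalized values IFI27 and IFIT1 passed, with 1.4% of all genes called higher and 0.658% lower. That normalization was run on the deposited values, already centred per probe set, so it gave all arrays the same spread of centred values. Without it, the siRNA-2 calls of BST2, IFI35 and IFIT5 were lost when the same probe sets were fitted over all probe sets.

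**Figure D1:**
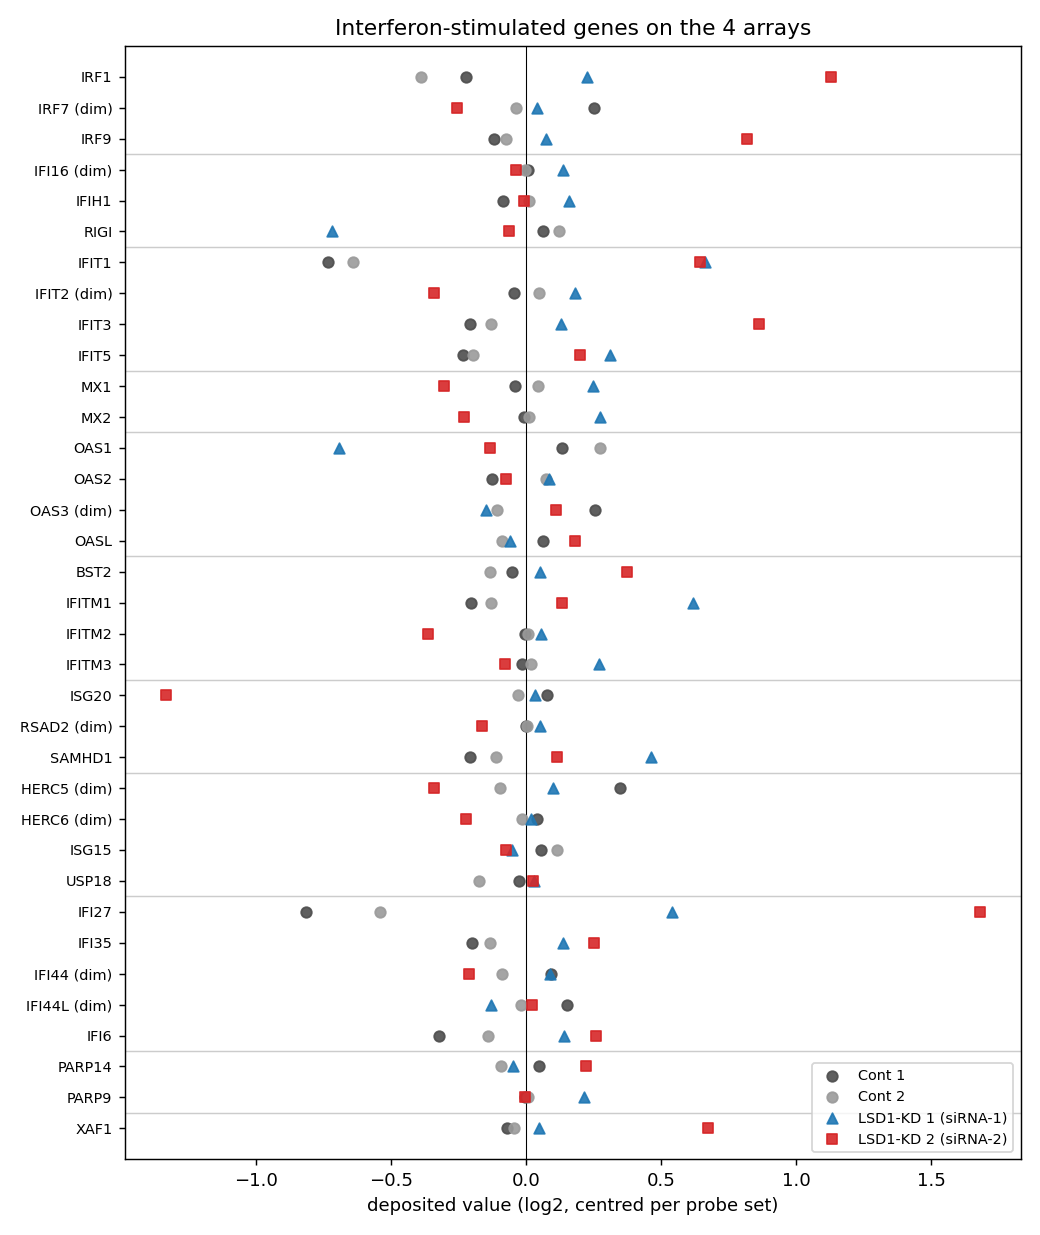
Deposited log2 value, centred per probe set, of each of the 35 members on the 4 arrays (1 probe set per gene, 1 symbol per array, no error bars because each point is a single array). IFIT1 shows both knockdown arrays together at 0.66 and 0.64 and both controls below -0.6, IFI27 and IRF1 reach furthest to the right with siRNA-2, and ISG20 stands alone to the left with siRNA-2 at -1.33.

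Of the 3 transcription factors measured that carry the interferon signal, IRF1 and IRF9 rose with siRNA-2 and IRF7 did not pass. IRF1, a factor that activates many of these genes and is itself induced by interferon gamma, read -0.22 on Cont 1, -0.39 on Cont 2, 0.22 for siRNA-1 and 1.13 for siRNA-2. Both knockdown arrays were above both controls, and the siRNA-2 array was the higher of the pair. The knockdown mean was 0.98 ± 0.33 log2 units higher (SE, n = 2 arrays a group), a 1.98-fold difference with adjusted p = 0.315 by limma. With siRNA-2 alone IRF1 rose by 1.44 (adjusted p = 0.0162 by limma), and with siRNA-1 it was 0.53 higher (adjusted p = 0.122). A second IRF1 probe set differed by 0.20 with siRNA-1 and 1.21 with siRNA-2.

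IRF9, the DNA-binding subunit of the complex that recognises the ISRE, read -0.12 on Cont 1, -0.07 on Cont 2, 0.07 for siRNA-1 and 0.82 for siRNA-2. The groups did not overlap, but the siRNA-1 array stood close to the controls. IRF9 rose by 0.91 with siRNA-2 (adjusted p = 0.0173 by limma) and was 0.17 higher with siRNA-1. The difference between the siRNAs was 0.74 (adjusted p = 0.0463 by limma), and 4.28% of all genes were called in that direction. That comparison sets 1 array against 1 with a spread taken from the control pair, although the siRNA-2 array spread more widely. It calls 3 members here (8.57%, against 7.31% of all genes) and 0 after quantile normalization (0% of all genes). After centring each array on its median it calls 11 (31.4%, against 16.3% of all genes). With 1 array per siRNA, an siRNA and its array cannot be told apart. A probe set that names both RNF31 and IRF9 gave -0.14, so the reading rests on the IRF9-specific probe set. IRF7, which amplifies type I interferon production, was in the dim class and its groups overlapped (-0.21 ± 0.17, SE, n = 2 arrays a group).

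The IFIT proteins bind viral RNA and hold back its translation, and 3 of their 4 genes, which neighbour each other on chromosome 10, rose with siRNA-2. IFIT1 read -0.73 on Cont 1, -0.64 on Cont 2, 0.66 for siRNA-1 and 0.64 for siRNA-2. The knockdown arrays were as close to each other as the controls were, and the gap between the groups far exceeded the gap within either. IFIT1 was 1.34 ± 0.10 log2 units higher (SE, n = 2 arrays a group), or 2.53-fold (95% interval 1.06 to 1.62 log2 units). It ranked 25 of 19752 genes by p in that fit, with adjusted p = 0.0944 by limma. It was 1.35 higher with siRNA-1, which did not pass, and rose by 1.33 with siRNA-2. After quantile normalization its difference was 1.54 (adjusted p = 0.0262 by limma).

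IFIT3, which stabilises IFIT1 in a shared complex, read -0.21 on Cont 1, -0.13 on Cont 2, 0.13 for siRNA-1 and 0.86 for siRNA-2. It rose by 1.03 with siRNA-2 (adjusted p = 0.0167 by limma), was 0.30 higher with siRNA-1, and the siRNAs differed by 0.73 (adjusted p = 0.0499). A further IFIT3 probe set gave larger differences, 1.07 with siRNA-1 and 1.82 with siRNA-2. IFIT5, which also binds host and viral RNA, read -0.23 on Cont 1, -0.20 on Cont 2, 0.31 for siRNA-1 and 0.20 for siRNA-2. Its knockdown arrays were both above the controls, and it rose by 0.41 with siRNA-2 (adjusted p = 0.0435 by limma) and was 0.52 higher with siRNA-1. IFIT2 read -0.05 on Cont 1, 0.05 on Cont 2, 0.18 for siRNA-1 and -0.34 for siRNA-2, and its dim probe sets disagreed: the chosen one gave 0.18 under siRNA-1 and -0.34 under siRNA-2, and another gave 0.55 and 0.26.

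The small IFI proteins included the member with the largest difference. IFI27, a mitochondrial and nuclear-envelope protein and one of the most interferon-responsive genes in liver, read -0.82 on Cont 1, -0.54 on Cont 2, 0.54 for siRNA-1 and 1.68 for siRNA-2. The groups were apart on every array, with siRNA-2 furthest. The knockdown mean was 1.79 ± 0.41 log2 units higher (SE, n = 2 arrays a group), or 3.45-fold, with adjusted p = 0.244 by limma. It rose by 2.36 with siRNA-2 (adjusted p = 0.0147 by limma) and was 1.22 higher with siRNA-1 (adjusted p = 0.0961). After quantile normalization the difference was 1.72 (adjusted p = 0.0208 by limma).

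IFI35, which binds NMI and modulates innate signalling, read -0.20 on Cont 1, -0.13 on Cont 2, 0.13 for siRNA-1 and 0.25 for siRNA-2, and rose by 0.42 with siRNA-2 (adjusted p = 0.0479 by limma). IFI6, a relative of IFI27 that protects the endoplasmic reticulum against flavivirus replication, was 0.43 ± 0.12 higher with both knockdown arrays above the controls, and did not pass with siRNA-2 (adjusted p = 0.0719 by limma). IFI44 and IFI44L, neighbours on chromosome 1, were dim, and their groups overlapped (-0.06 and -0.12). The IFI44 arrays were 0.09 and -0.09 in the controls, 0.09 with siRNA-1 and lowest, at -0.21, with siRNA-2.

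Of 4 genes for proteins that restrict viruses at membranes, only BST2 passed with siRNA-2, as higher. BST2 (tetherin), which holds budding virus to the cell surface, read -0.05 on Cont 1, -0.13 on Cont 2, 0.05 for siRNA-1 and 0.37 for siRNA-2. Its siRNA-1 array stood just above the nearer control, and it rose by 0.47 with siRNA-2 (adjusted p = 0.0436 by limma). IFITM1, which blocks fusion of enveloped viruses, was 0.54 ± 0.19 higher, with 0.79 with siRNA-1 and 0.30 with siRNA-2 (adjusted p = 0.0876 by limma). A probe set that names both IFITM1 and IFITM2 gave 0.73 under siRNA-1 and 0.37 under siRNA-2. The groups overlapped for IFITM2 (-0.15) and IFITM3 (0.10), although the IFITM genes lie together on chromosome 11. IFITM2 was within 0.01 of 0 on both controls, 0.05 for siRNA-1 and -0.36 for siRNA-2. IFITM3 was -0.02 on Cont 1, 0.02 on Cont 2, 0.27 for siRNA-1 and -0.08 for siRNA-2. In both genes siRNA-1 gave the highest array and siRNA-2 the lowest.

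XAF1, an interferon-induced antagonist of the apoptosis inhibitor XIAP, read -0.07 on Cont 1, -0.05 on Cont 2, 0.05 for siRNA-1 and 0.67 for siRNA-2. It rose by 0.73 with siRNA-2 (adjusted p = 0.0207 by limma) and was 0.10 higher with siRNA-1. A further XAF1 probe set gave 0.51 with siRNA-1 and 1.72 with siRNA-2.

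ISG20, an exonuclease that degrades single-stranded RNA, was the member that fell. It read 0.08 on Cont 1, -0.03 on Cont 2, 0.03 for siRNA-1 and -1.33 for siRNA-2. The siRNA-1 array lay between the controls, and the siRNA-2 array alone was low. ISG20 fell by 1.36 with siRNA-2 (adjusted p = 0.0146 by limma), and the siRNAs differed by -1.37 (adjusted p = 0.0397 by limma), a call that 3.02% of all genes received in that direction. A further ISG20 probe set gave 0.02 with siRNA-1 and -1.12 with siRNA-2. Without the siRNA-2 array the ISG20 difference was 0.0085.

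SAMHD1, which hydrolyses deoxynucleotides and so limits retroviral replication, was 0.45 ± 0.16 higher (0.62 with siRNA-1 and 0.27 with siRNA-2, adjusted p with siRNA-2 = 0.114 by limma). It was the member with most probe sets, and they disagreed. A pair whose probes can also match other sequences gave 0.85 and 0.92 with siRNA-1 and 0.55 and 0.58 with siRNA-2 (adjusted p = 0.0361 and 0.0325 by limma over probe sets), and the remaining 3 gave -0.21 to 0.07 with siRNA-2. RSAD2 (viperin), which makes a chain-terminating nucleotide, was dim, and it read -0.0024 on Cont 1, 0.0024 on Cont 2, 0.05 for siRNA-1 and -0.16 for siRNA-2. The mean difference was -0.06 ± 0.12 (SE, n = 2 arrays a group).

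Several of the best-known interferon-response markers did not pass as higher. MX1 and MX2, dynamin-like GTPases that trap viral nucleoproteins, lie side by side on chromosome 21 and were both bright. MX1 read -0.04 on Cont 1, 0.04 on Cont 2, 0.25 for siRNA-1 and -0.31 for siRNA-2. MX2 read -0.01 on Cont 1, 0.01 on Cont 2, 0.27 for siRNA-1 and -0.23 for siRNA-2. In both genes the siRNA-1 array was above the controls and the siRNA-2 array below them. The difference between the siRNAs did not pass (adjusted p = 0.0651 for MX1 and 0.0613 for MX2 by limma). The mean MX1 difference was -0.03 ± 0.21, with a 95% interval of -0.61 to 0.55, and it was 0.051 after quantile normalization. For MX2 it was 0.02 ± 0.20, with an interval of -0.51 to 0.55.

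ISG15, the ubiquitin-like protein that is conjugated to others during the response, read 0.05 on Cont 1, 0.11 on Cont 2, -0.05 for siRNA-1 and -0.08 for siRNA-2. Both knockdown arrays were below both controls by a small margin, and the mean difference of -0.15 ± 0.10 (SE, n = 2 arrays a group) had a 95% interval of -0.42 to 0.12. USP18, the protease that removes ISG15 and damps receptor signalling, was 0.13 ± 0.11 higher. The ISG15 ligase HERC5 and its relative HERC6 were dim and overlapped between the groups (-0.25 and -0.12). HERC6 was 0.04 and -0.02 in the controls, 0.02 for siRNA-1 and -0.22 for siRNA-2, so siRNA-2 alone was outside the range of the others.

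The OAS enzymes make the second messenger that activates RNase L. OAS1 read 0.13 on Cont 1, 0.27 on Cont 2, -0.70 for siRNA-1 and -0.13 for siRNA-2. Both knockdown arrays were below both controls, with siRNA-1 the lower. The mean difference was -0.62 ± 0.22 (adjusted p = 0.329 by limma), and a further OAS1 probe set gave -0.17. OAS2 (0.03), OAS3 (-0.09) and OASL (0.07) overlapped between the groups. OAS2 was -0.13 on Cont 1, 0.07 on Cont 2, 0.09 for siRNA-1 and -0.07 for siRNA-2. OAS3 was 0.25, -0.11, -0.15 and 0.11 in the same order, and OASL was 0.06, -0.09, -0.06 and 0.18. None of these chosen probe sets separates knockdown from control. A further dim OAS2 probe set was higher on both knockdown arrays (0.38), while another dim one overlapped (0.09). Further probe sets of OAS3 (-0.05) and OASL (-0.14) were lower on both knockdown arrays.

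Of the nucleic acid sensors, RIGI, which recognises RNA with 5′ triphosphates, read 0.06 on Cont 1, 0.12 on Cont 2, -0.72 for siRNA-1 and -0.06 for siRNA-2. The siRNA-1 array was far below the others. The mean difference was -0.48 ± 0.24 (adjusted p = 0.44 by limma), while its further probe sets gave 0.14 and 0.07, so a lower RIGI rests on 1 probe set. IFIH1 (MDA5), which recognises long double-stranded RNA, also depended on the probe set. The chosen one gave 0.20 under siRNA-1 and 0.03 under siRNA-2, and another gave 0.81 and 0.73 (adjusted p with siRNA-2 = 0.0254 by limma over probe sets). IFI16, a DNA sensor in the dim class, was 0.0063 on Cont 1, -0.0063 on Cont 2, 0.14 for siRNA-1 and -0.04 for siRNA-2, with a mean difference of 0.05 ± 0.11 (SE, n = 2 arrays a group).

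PARP9 and PARP14, ADP-ribosyltransferases that modulate interferon signalling, lie together on chromosome 3. Their chosen probe sets overlapped between the groups (0.10 and 0.11). PARP9 was -0.0055 on Cont 1, 0.0055 on Cont 2, 0.21 for siRNA-1 and -0.0055 for siRNA-2. PARP14 was 0.05, -0.09, -0.05 and 0.22 in the same order, so the higher knockdown array was a different one in each gene. A second bright PARP9 probe set gave 0.14 with siRNA-1 and 0.95 with siRNA-2 (adjusted p = 0.0227 by limma over probe sets).

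**Figure D2:**
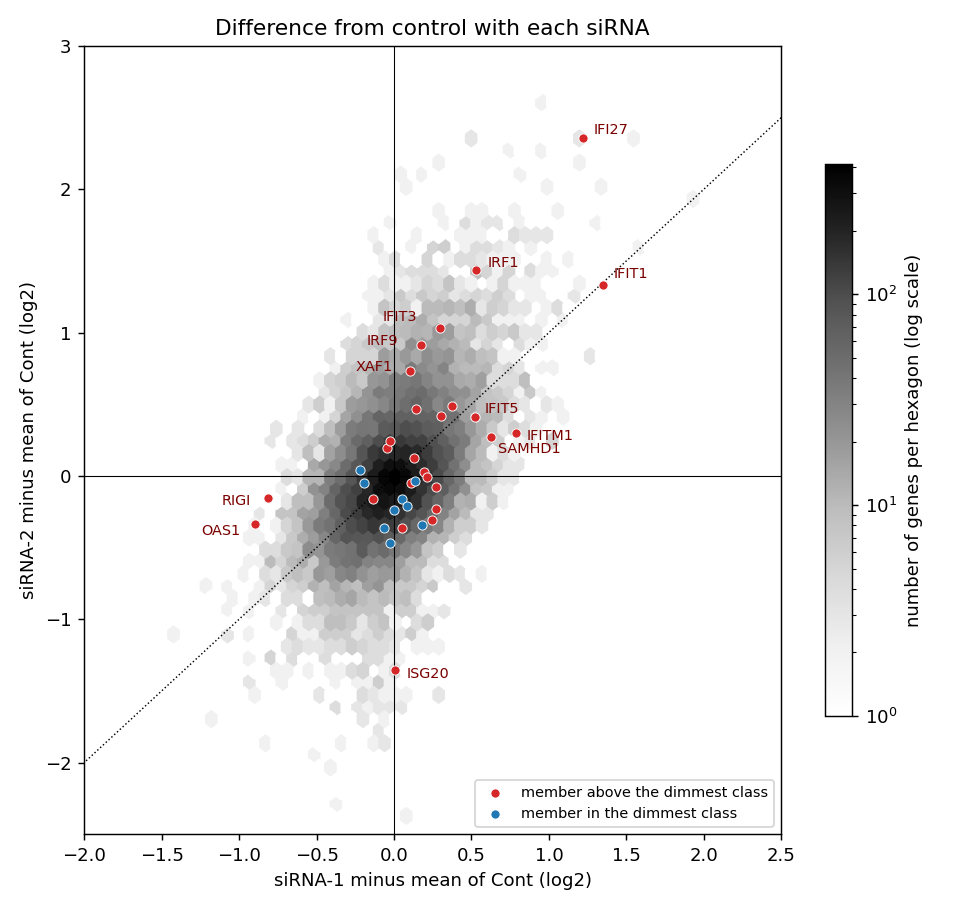
Difference from the mean of the control arrays in log2 units, siRNA-1 on the horizontal axis and siRNA-2 on the vertical axis, for the 35 members over all genes (35 genes, none of them members, lie beyond the axes). Both axes subtract the same 2 control arrays, so a slope in the cloud is not a result; IFIT1 lies at 1.35 and 1.33, IFI27 at 1.22 and 2.36, and ISG20 at 0.01 and -1.36.

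Over all 63 probe sets of the members, both knockdown arrays lay above both controls in 26 and below in 5, where the shares over all single-gene probe sets were 22% and 26.8%. Of the 35 members, 19 had more than 1 probe set. The 13 members higher on both arrays had 10 further probe sets, of which 8 were also higher and none lower. These probe sets read the same RNA of genes picked for being higher, so their order is not independent support. No matching share over all genes was computed. The remaining members had 18 further probe sets, of which 5 were higher and 2 lower.

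**Figure D3:**
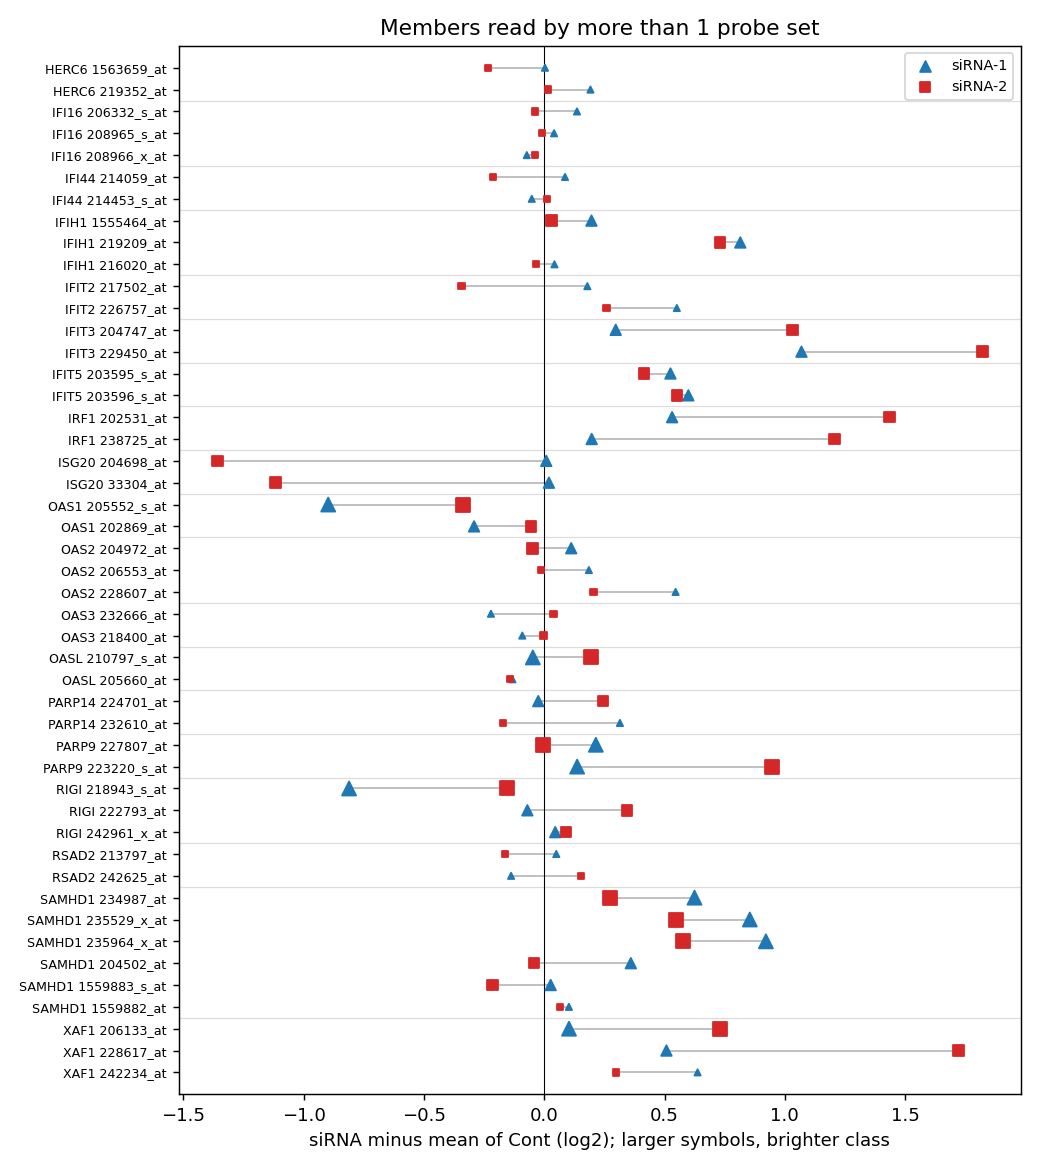
Difference of each siRNA from the mean of the control arrays (log2) for every probe set of the 19 members read by more than 1, with larger symbols for brighter classes. The probe sets of IRF1, IFIT3 and ISG20 point the same way with siRNA-2, whereas those of IFIH1, RIGI and PARP9 do not.

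ISRE cores were found at similar shares among the members that were higher and among the rest. Of the 13 members higher on both knockdown arrays, 12 had a promoter in the table, and 7 of these (58.3%) held an ISRE core. Of the other 16 measured members with a promoter, 10 (62.5%) held one, among them ISG15, MX1, OAS3 and HERC5. The MX1 match lies after the start. GAS matches were in 6 of the 12 (BST2, IFI27, IFI35, IFITM1, IRF1 and IRF9) and in 2 of the 16 (OAS1 and PARP14). These counts were made after the arrays had been read and are descriptions without a test.

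Many members are neighbours in the genome. Of the 35 genes, 19 lie in 7 clusters in which neighbours are within 500 kb. In the IFIT cluster 3 of 4 genes were higher on both knockdown arrays, and in the cluster of the IFITM genes and IRF7 only IFITM1 was. None were in the clusters that hold MX1 and MX2, OAS2 and OAS3, HERC5 and HERC6, IFI44 and IFI44L, or PARP9 and PARP14.

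A second list of 60 interferon-stimulated genes outside the members, 54 of them measured, had a median difference of 0.12, with 25 genes (46.3%) higher and 12 (22.2%) lower on both knockdown arrays, against the 23.6% and 25.3% of all genes given above. With siRNA-2, 18 rose (33.3%, against 13.4%) and 3 fell (5.56%, against 10.2%). Like the members, this list was chosen with earlier results of these data known, so its shares are descriptions and not independent support. TRIM22, a restriction factor, read -0.84 on Cont 1, -0.79 on Cont 2, 0.79 for siRNA-1 and 1.28 for siRNA-2, which makes a difference of 1.85 ± 0.19. TNFSF10 (TRAIL), a death ligand, differed by 1.53 ± 0.20, UBE2L6, the conjugating enzyme for ISG15, by 0.94 ± 0.17, and PSMB8, an immunoproteasome subunit, by 0.69 ± 0.13. All 4 rose with siRNA-2 (adjusted p = 0.0143 for TRIM22 and TNFSF10, 0.0333 for UBE2L6 and 0.0188 for PSMB8 by limma).

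The interferons themselves gave little signal. Of 18 ligand genes measured, 14 were in the dim class. In 6 (33.3%, against 23.6% of all genes) both knockdown arrays were higher and in 3 (16.7%, against 25.3%) both were lower (median 0.06). None passed with siRNA-2, where 13.4% of all genes rose and 10.2% fell. None passed with siRNA-1 either, where 0% of all genes did. IFNB1, a type I interferon made early after a virus is sensed, was dim and differed by 0.38 ± 0.15, and the lambda interferon IFNL2, also dim, by 0.29 ± 0.10. IFNW1 differed by -0.38 ± 0.17.

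Of 10 receptor and JAK-STAT genes, 6 (60%, against 23.6% of all genes) had both knockdown arrays higher and 1 (10%, against 25.3%) had both lower (median 0.29). With siRNA-2, 3 rose (30%, against 13.4%) and 1 fell (10%, against 10.2%). IFNGR1, the ligand-binding chain of the interferon gamma receptor, read -0.61 on both control arrays, 0.66 for siRNA-1 and 0.61 for siRNA-2. Its difference of 1.24 ± 0.10 was close on both knockdown arrays, and it rose with siRNA-2 (adjusted p = 0.0143 by limma). JAK2, the kinase bound to the partner chain of that receptor, read 0.36 on both control arrays, -0.47 for siRNA-1 and -0.36 for siRNA-2, and fell with siRNA-2 (adjusted p = 0.0208 by limma). JAK1 and IFNLR1 were each 0.34 higher and did not pass.

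Of 8 feedback inhibitors, 5 (62.5%) had both knockdown arrays higher and 1 (12.5%) had both lower (median 0.16), and with siRNA-2 3 rose (37.5%) and 1 fell (12.5%), against the shares of all genes just given. SOCS1, which is induced by the response and blocks JAK kinases, differed by 1.11 ± 0.32 (1.57 with siRNA-2, adjusted p = 0.0143 by limma). The STAT inhibitor PIAS1 differed by 0.71 ± 0.26 and the phosphatase PTPN6 by 0.46 ± 0.11, while PTPN11 differed by -0.59 ± 0.16.

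Sensors and adaptors act upstream of the interferon genes. Of 17 such genes, 3 (17.6%, against 23.6% of all genes) had both knockdown arrays higher and 7 (41.2%, against 25.3%) had both lower (median -0.03). With siRNA-2, 1 rose (5.88%, against 13.4%) and 4 fell (23.5%, against 10.2%). TICAM1, the adaptor of TLR3, differed by -0.41 ± 0.10, IRF3, the factor that switches on IFNB1, by -0.39 ± 0.15, and the kinase IKBKE by -0.40 ± 0.18. DDX41, a DNA sensor, differed by -0.28 ± 0.10 and did not pass with siRNA-2.

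Genes that handle double-stranded RNA and the silencing complex were read because both groups received siRNA. Of 10 measured, none was higher on both knockdown arrays (against 23.6% of all genes) and 2 were lower (20%, against 25.3%). With siRNA-2 none rose (against 13.4%) and 2 fell (20%, against 10.2%). AGO2, the slicing Argonaute, read 0.45 on Cont 1, 0.51 on Cont 2, -0.63 for siRNA-1 and -0.45 for siRNA-2 (-1.02 ± 0.12, adjusted p with siRNA-2 = 0.0176 by limma). DICER1, which cuts precursors of small RNAs, was 0.11 higher with siRNA-1 and fell by 1.84 with siRNA-2 (adjusted p = 0.0143 by limma). DROSHA differed by -0.27 ± 0.11 and AGO3 by 0.13 ± 0.12.

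**Figure D4:**
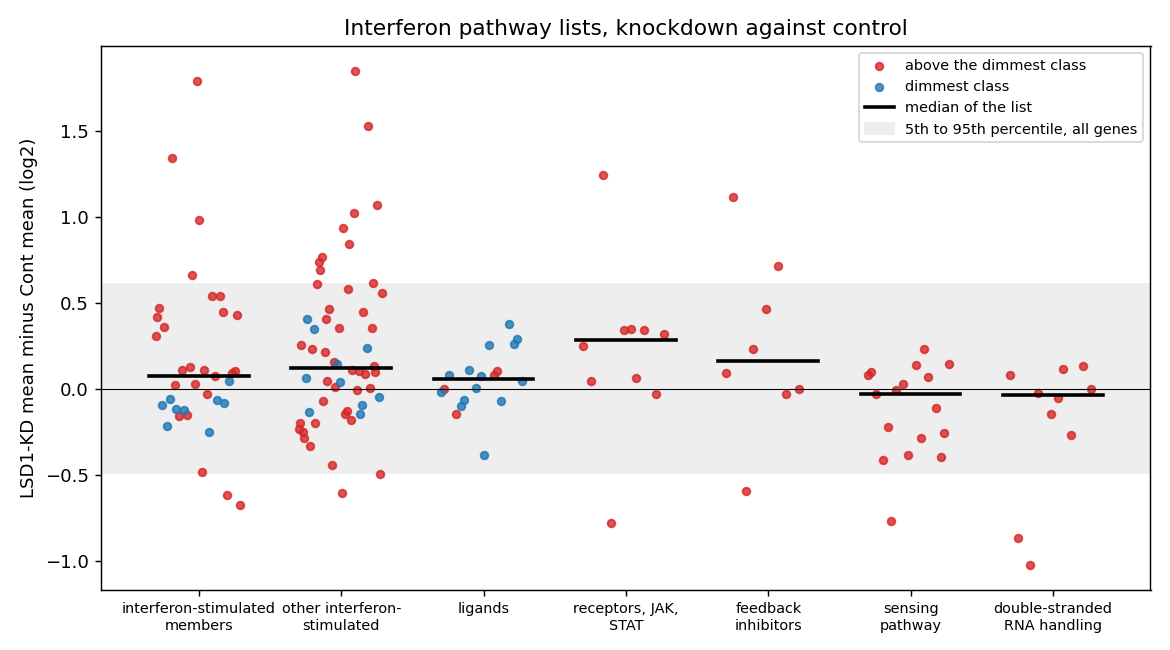
Knockdown mean minus control mean in log2 units for every gene of the members and of the pathway lists (1 point per gene, black bar the median of the list, blue points the dim class). The grey band holds the 5th to 95th percentile of all 19752 genes (-0.49 to 0.61), and the members' median of 0.07 lies well inside it.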

How the data were processed

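RNA of 2 control and 2 LSD1-knockdown samples was read on HG-U133 Plus 2.0 arrays. The authors deposited values made with RMA, per the submitters' processing notes, which are taken as log2. The RMA version is not given in the sources used here, nor are the log base and any joint normalization. In every probe set the median of the 4 arrays is 0 (largest deviation 5.0e-07), so levels are gone. Brightness classes come from the step of single-precision numbers (limits 8 and 4 in log2 units), and by chance about 1 in 8 probe sets is placed 1 class too bright. Of 54675 probe sets, 41097 name 1 gene, 1801 several and 11777 are unnamed here. 1 probe set per gene was chosen by brightest class, then suffix, then identifier. Differences were tested with limma 3.58.1 in R 4.3.3, two-sided, with Benjamini-Hochberg adjustment over 19752 genes and a threshold of 0.05. The 2-group fit had 2.34 prior degrees of freedom, and the 3-group fit, whose spread comes from the controls alone, had 2.08. Values are given in full for members at least 0.4 log2 units from the controls with each siRNA, for members past a test and for members whose siRNAs went opposite ways. Up to 4 genes of each list, by smallest p, are named, with PTPRC added as the defining marker of its list. Members and lists were chosen with earlier results of these data known. Promoters are RefSeq's, and an array gives no depth, so the number of arrays limits the precision.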

Additional observations from a re-analysis of the deposited data

Results flagged for a closer look

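For 3 members (8.57%) the siRNAs differed from each other past the threshold (limma with 3 groups, 1 array per siRNA). The share over all genes was close to that, at 7.31%. Counted as siRNA-2 minus siRNA-1, IFIT3 was 0.73 log2 units higher, IRF9 was 0.74 higher, and ISG20 differed by -1.37. The siRNA-2 array also had the widest spread over all probe sets (SD 0.384, against 0.197 with siRNA-1), and its part in these differences was not tested.

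A signal outside the single-gene probe sets was the probe set that names both IFITM2 and IFITM1. It read -0.18 on Cont 1, -0.22 on Cont 2, 0.54 for siRNA-1 and 0.18 for siRNA-2, which makes a difference of 0.55, while the IFITM2 probe set gave -0.15 and the IFITM1 probe set 0.54.

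The hybridization spike-ins, RNA added to every array, were 1.28 log2 units higher on the knockdown arrays, and the 18 single probe sets ran from 0.80 to 1.53. That is close to the IFIT1 difference of 1.34. The part of the spike-ins in the members' differences was not tested.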

How the results depend on the processing

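No member was called between knockdown and control with the replicate block (0 calls), robust moderation, per-array centring, averaged probe sets or bright and middle genes only. No label says that the replicate numbers pair the arrays. Deviations of arrays with the same number correlated at 0.036. This cannot decide the question, because the 2 knockdown arrays also differ in their siRNA. Quantile normalization, run on the centred values, gave 2 calls between knockdown and control, IFI27 and IFIT1 (5.71% of members, against 2.06% of all genes). It gave 0 siRNA-2 calls in either direction and 0 differences between the siRNAs, where all genes also had 0%. The MX1 difference was then 0.051. With each array centred on its median, siRNA-1 gave 3 higher and 2 lower calls (2.49% and 1.54% of all genes), siRNA-2 gave 2 lower (12%), and the siRNAs differed for 11 members (16.3%). The mean of a gene's probe sets gave 1 higher call with siRNA-1, 2 lower with siRNA-2 and 7 differences (0.527%, 12% and 10.8% of all genes), with IFIT2 at 0.16 and OASL at -0.032. Without probe sets of suffix _x_at, _s_at or _a_at, 1 member was lower on both arrays (24.4% of all genes), 1 differed between siRNAs (4.49%), OASL was -0.14 and RIGI 0.14. Taken singly, 26 probe sets were higher and 5 lower on both arrays, with 2 lower calls for siRNA-2 (9.11% of all probe sets) and 0 differences. Without the dim class, siRNA-1 gave 2 higher calls and 1 lower (1.69% and 1.04% of genes), siRNA-2 2 lower (16.6%), and 11 differed (20.8%). Asking for 0.4 log2 units with each siRNA left 4 members higher (IFIT1, IFIT5, IFI27 and IRF1) and 0 lower.

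Leaving out 1 array at a time gave 0 to 10 calls, 15 to 23 members higher and 3 to 15 lower on both arrays. The 10 came without siRNA-1 (23.6% of all genes called), which leaves the siRNA-2 comparison; the 23 came without siRNA-2. The cause was not tested. Without a control array, a single siRNA has no residual degrees of freedom and no test. Signs turned over these fits for HERC6 (-0.23 to 0.0032), IFI16 (-0.038 to 0.14), IFI44 (-0.21 to 0.086), IFIT2 (-0.34 to 0.18), IFITM2 (-0.36 to 0.054), IFITM3 (-0.078 to 0.27), ISG20 (-1.36 to 0.0085), MX1 (-0.31 to 0.25), MX2 (-0.23 to 0.27), OAS2 (-0.069 to 0.13), OAS3 (-0.27 to 0.090), OASL (-0.047 to 0.19), PARP14 (-0.025 to 0.24), PARP9 (-0.0055 to 0.21) and RSAD2 (-0.16 to 0.050). Among the alternative values for single members, 331 kept their sign and side of the threshold, 25 changed sign and 12 newly passed.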
